A study of Mus musculus with 9 samples.

Results

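The CDK inhibitors and the retinoblastoma family are 10 mouse genes that hold cells back before DNA synthesis. The family was read from all probe sets that the array annotation gives to exactly 1 of these symbols, which were 17 of the 45101 on the array. All 10 genes had at least 1 probe set above background, and they form part of the 13320 genes tested. The groups were DKK1-treated and untreated retinal progenitors grown out of mouse embryonic stem cells (ESC-RPCs), and primary retinal progenitors (RPCs), with 3 arrays of biotin-labelled cRNA each, which the series calls independent biological repeats.

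Both ESC-RPC groups came from the single embryonic stem cell line 46C, a gene-targeted derivative of E14Tg2a.IV. Embryoid bodies were grown for 3 days in serum-free medium with SB431542, a blocker of Nodal signalling, and plated on Matrigel. Sox1-positive cells, 35.8% of the population, were sorted at day 7 and kept in N2 medium with DAPT, an inhibitor of Notch cleavage, at 10 µM and with bFGF, a mitogen for neural progenitors, at 20 ng/ml. The treated group also received recombinant DKK1, a secreted Wnt antagonist, at 1 ng/ml for 1 day. The series describes the treated cells as the more mature stage. Primary RPCs came from dissociated neural retinas of 1-day-old C57 mice and are labelled as primary cultured cells; whether animals were pooled is not given in the sources used here. Cell source, genetic background, stage and culture all differ between ESC-RPCs and primary RPCs and cannot be told apart.

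Passage through G1 is driven by cyclin-dependent kinases. Cyclin D with Cdk4 or Cdk6, and then cyclin E with Cdk2, phosphorylate the retinoblastoma proteins Rb1, Rbl1 (p107) and Rbl2 (p130), which releases E2F transcription factors. The Ink4 inhibitors, encoded by Cdkn2a, Cdkn2b, Cdkn2c and Cdkn2d, bind Cdk4 and Cdk6, whereas the Cip/Kip inhibitors, encoded by Cdkn1a (p21), Cdkn1b (p27) and Cdkn1c (p57), act on a wider range of cyclin and kinase pairs. In the developing retina Cdkn1b and Cdkn1c are known for roles in cell cycle exit, and Rb1 is known as a tumour suppressor of this tissue. Cdkn2a also encodes p19Arf, which stabilises p53, from a second promoter and another reading frame.

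Cdkn2a and Cdkn2b are neighbours on chromosome 4 and were the members with the highest intensities in ESC-RPCs relative to primary cells, so their promoter windows are shown. The last window is that of Rbl1, a known E2F target. Each window runs from 250 bases before to 50 bases after a transcript start, from RefSeq on build GRCm38.p6. Of the members, 8 had such windows, 11 in all. The sequences read 5′ to 3′ along the gene, and capitals mark matches to the E2F motif.
Cdkn2a, upstream start (p19Arf), chr4:89294570-89294869, minus strand: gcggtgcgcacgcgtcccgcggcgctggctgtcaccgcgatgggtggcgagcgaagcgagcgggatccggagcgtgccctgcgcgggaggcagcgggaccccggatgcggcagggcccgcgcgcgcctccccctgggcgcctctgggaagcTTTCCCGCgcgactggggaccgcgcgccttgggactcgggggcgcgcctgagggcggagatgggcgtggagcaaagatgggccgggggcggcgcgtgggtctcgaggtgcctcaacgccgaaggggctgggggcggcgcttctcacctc
Cdkn2a, downstream start (p16Ink4a), chr4:89282143-89282442, minus strand: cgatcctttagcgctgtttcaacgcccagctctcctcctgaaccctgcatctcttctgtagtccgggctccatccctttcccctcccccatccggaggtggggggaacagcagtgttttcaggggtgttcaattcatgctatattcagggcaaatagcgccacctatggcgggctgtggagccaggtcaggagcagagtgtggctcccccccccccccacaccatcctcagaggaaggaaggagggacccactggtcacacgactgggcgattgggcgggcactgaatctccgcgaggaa
Cdkn2b, chr4:89310983-89311282, minus strand: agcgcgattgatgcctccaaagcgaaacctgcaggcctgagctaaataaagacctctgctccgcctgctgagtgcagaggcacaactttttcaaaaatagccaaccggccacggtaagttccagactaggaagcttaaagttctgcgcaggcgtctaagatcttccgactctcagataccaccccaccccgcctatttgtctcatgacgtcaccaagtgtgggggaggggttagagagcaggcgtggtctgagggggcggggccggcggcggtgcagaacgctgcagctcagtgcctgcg
Rbl1, chr2:157204485-157204784, minus strand: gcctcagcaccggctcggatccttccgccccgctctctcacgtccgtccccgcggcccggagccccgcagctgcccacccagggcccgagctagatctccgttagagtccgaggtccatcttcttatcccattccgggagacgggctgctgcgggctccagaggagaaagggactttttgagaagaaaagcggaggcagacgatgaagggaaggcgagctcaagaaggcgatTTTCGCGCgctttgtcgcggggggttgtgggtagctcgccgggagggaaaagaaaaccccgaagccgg

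The E2F motif was searched on both strands as TTTCCCGC, TTTCGCGC, TTTGCCGC or TTTGGCGC, and 2.26% of all 32851 windows held it. Of the 11 member windows, 2 did: Rbl1, with TTTCGCGC starting 18 bases before the transcript start, and the upstream window of Cdkn2a, with TTTCCCGC starting 99 bases before it. The GC box GGGCGG stood in 9 of the 11 member windows and in 35.7% of all windows, and TATAAA stood in 0 of 11 and in 13.6%. The upstream Cdkn2a window was 77.0% G or C with 45 CpG dinucleotides, the downstream Cdkn2a window 60.3% with 12, and the Cdkn2b window 57.7% with 18, where the median window had 52.7% and 7. The single Cdkn2a probe set carries only the gene's symbol in the annotation, so its intensity was not assigned to either start.

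Intensities are MAS5 values in linear units. A gene was read from its brightest probe set, group values are means ± SD over 3 arrays, and each log2 difference carries its SE from limma fitted to all 9 arrays. A gene was called at a Benjamini-Hochberg adjusted p below 0.05 over 13320 genes. Log2 profiles correlated at 0.975 to 0.985 for treated against untreated arrays, at 0.825 to 0.836 for ESC-RPC against primary arrays, and at 0.964 to 0.977 within the primary group, where replicate 2 had the lowest mean correlation with its group. The 3-prime over 5-prime signal ratio of Actb, a measure of RNA integrity, averaged 1.35 ± 0.0184 in DKK1-treated, 1.34 ± 0.0251 in untreated and 1.24 ± 0.0219 in primary cells, and its part in the differences from primary cells was not tested. In bulk samples, fewer cells of a type and less RNA per cell cannot be told apart. Of the 7 retinal progenitor markers measured, 5 were called lower and 2 higher in either ESC-RPC group than in primary RPCs. Pax6, a progenitor transcription factor of eye and brain, measured 1255 ± 210.5 in DKK1-treated and 1323 ± 193 in untreated cells, against 10035 ± 1063 in primary cells. Six3 and Lhx2, also called lower, had group means of 1054 or more in the ESC-RPCs, far above the background level, the 40th percentile of each array (44.7 to 52.9). Sfrp2 and Fgf15 were the markers called higher. Six6 averaged 63.2 ± 27.7 in DKK1-treated and 46.0 ± 12.9 in untreated cells, against 4386 ± 440.3 in primary cells, and Rax, 12.5 ± 16.0 in DKK1-treated and 28.2 ± 21.4 in untreated cells, against 3939 ± 943 in primary cells, so these eye-field markers were at or near background in the ESC-RPCs while others of the list were not. Rax, Sfrp2 and Fgf15 were named after their values were seen.

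**Figure D1:**
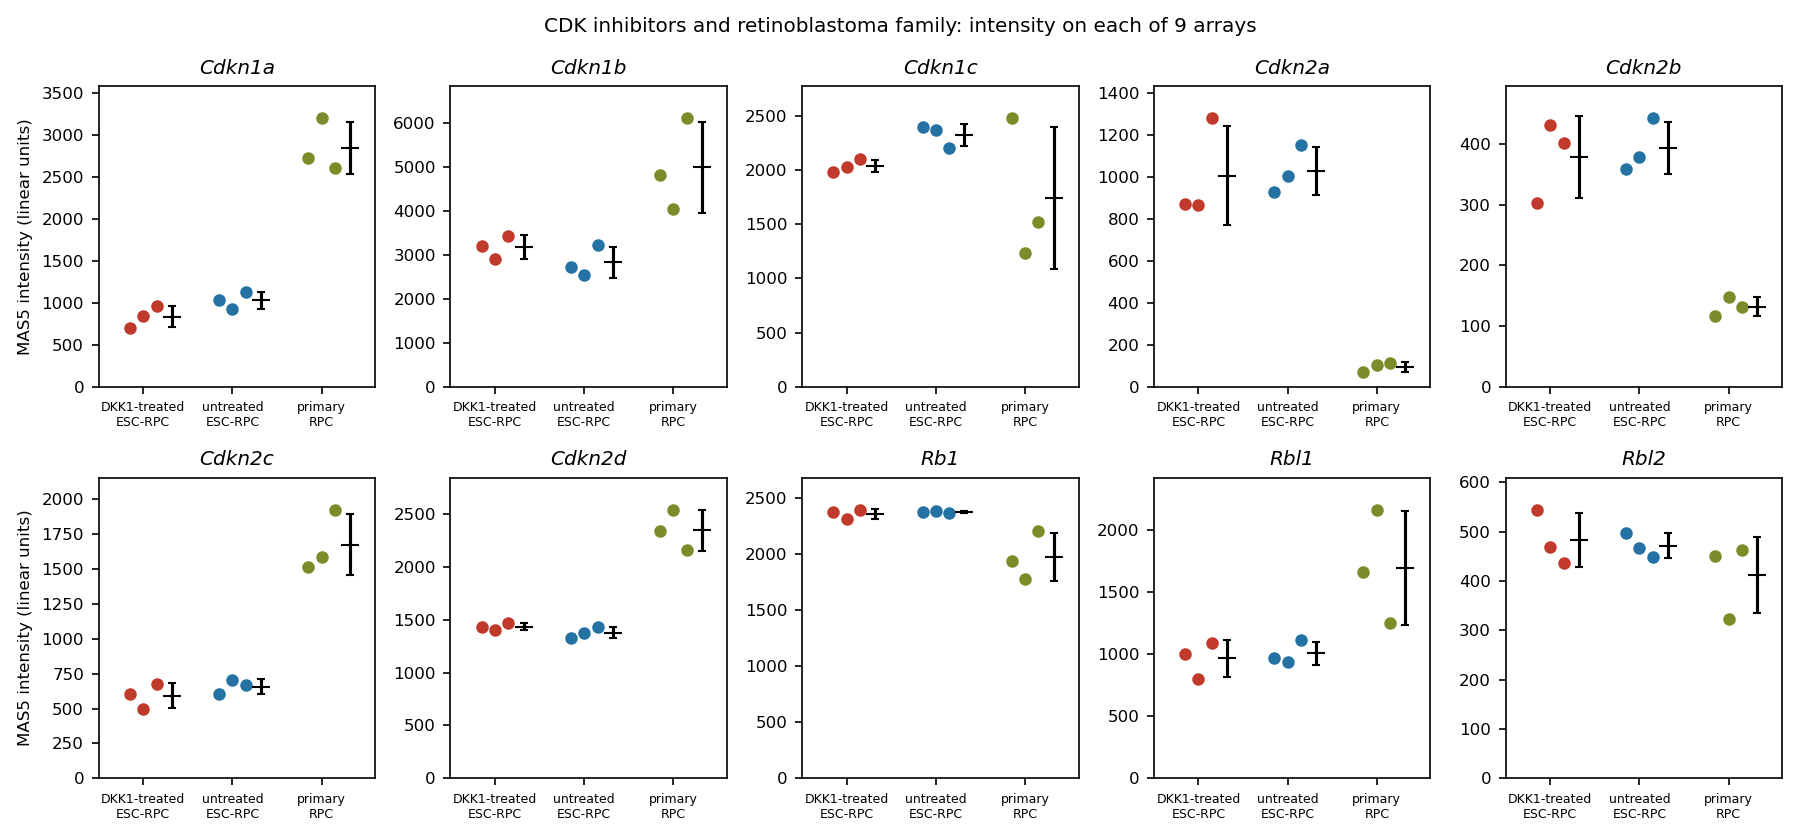
MAS5 intensity (linear units, y axis from 0) of the brightest probe set of each member on the 3 DKK1-treated, 3 untreated and 3 primary arrays (points), with the mean and SD of each group (bar). Cdkn2a, Cdkn2b and, by a small margin, Rb1 sit higher on all 6 ESC-RPC arrays than on any primary array, and Cdkn1a, Cdkn1b, Cdkn2c, Cdkn2d and Rbl1 sit lower.

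The comparison of ESC-RPCs with primary RPCs, which the series uses as its negative control for proliferation and oncogenesis, gave calls in both directions. Against primary RPCs, the same 3 members were called higher in both ESC-RPC groups (Cdkn2a, Cdkn2b and Rb1), and the same 5 were called lower (Cdkn1a, Cdkn1b, Cdkn2c, Cdkn2d and Rbl1). Cdkn1c and Rbl2 were not called. The background of calls was wide. Of all genes, 52.8% were called between DKK1-treated and primary cells (26% higher and 26.8% lower) and 53% between untreated and primary cells (26.1% higher and 26.9% lower). Likewise 8 members did not overlap between either ESC-RPC group and primary cells, where 59.2% of all genes did not for DKK1-treated and 60% for untreated cells. Both comparisons share the primary arrays and are not independent of each other. The median log2 difference of the 10 members from primary cells stood at -0.20 for DKK1-treated and -0.25 for untreated cells, against -0.01 over all genes in either comparison.

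**Figure D2:**
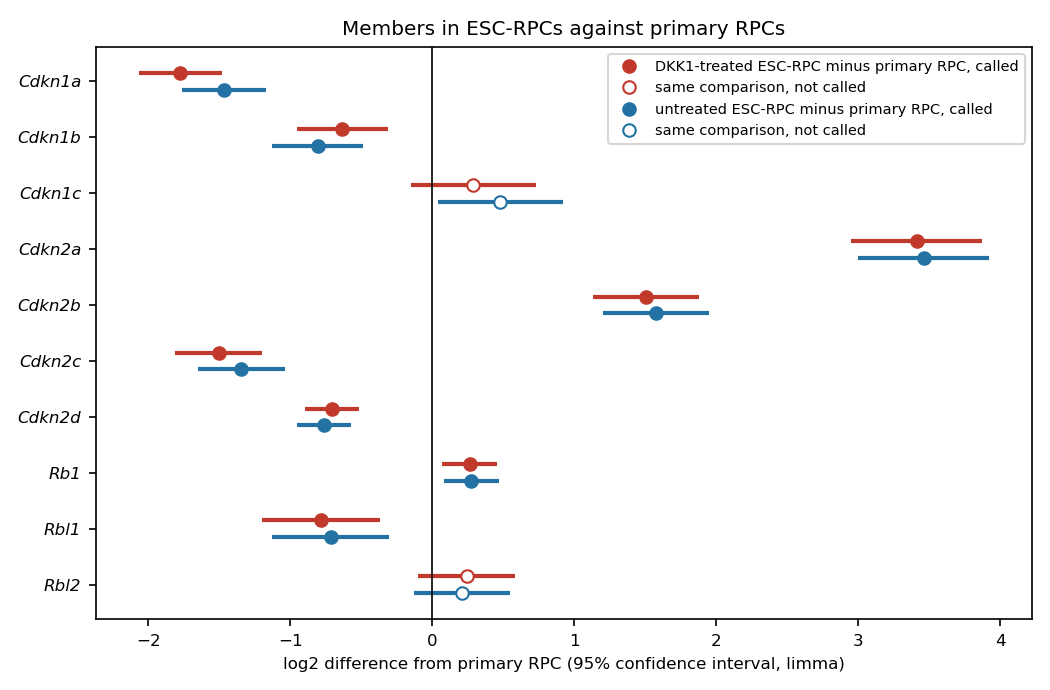
Log2 difference from primary RPCs (x axis) with the 95% confidence interval from limma, for each member (y axis) in DKK1-treated (upper of each pair) and untreated ESC-RPCs (lower); filled points were called at adjusted p below 0.05. The Ink4 genes lie on both sides of 0, with Cdkn2a at 3.41 and 3.46 and Cdkn2c at -1.50 and -1.34.

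Among the Ink4 inhibitors, Cdkn2a showed the largest difference in the family. It measured 872, 869 and 1280.4 in DKK1-treated cells and 927, 1007 and 1152 in untreated cells, against 69.0, 104 and 112 in primary cells. All ESC-RPC values lay far above the primary ones, which were themselves above the background level of their arrays but close to it. Cdkn2a was 10.6-fold higher in DKK1-treated cells (log2 difference 3.41 ± 0.21, adjusted p = 4.77e-07 by limma) and 11-fold higher in untreated cells (3.46 ± 0.21, adjusted p = 4.33e-07) than in primary cells. By size of difference it ranked 408 of 13320 genes in DKK1-treated and 375 of 13320 in untreated cells. The 2 ESC-RPC groups overlapped.

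Cdkn2b, whose product p15 inhibits Cdk4 and Cdk6, followed the same direction at lower intensities. It measured 302, 431 and 400.5 in DKK1-treated and 359, 379 and 442 in untreated cells, against 117, 147 and 132 in primary cells. No ESC-RPC array overlapped the primary range. The difference was 1.51 ± 0.17 in log2 for DKK1-treated cells (adjusted p = 3.66e-05 by limma) and 1.57 ± 0.17 for untreated cells (adjusted p = 2.72e-05), or 2.84-fold and 2.98-fold higher than in primary cells.

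The other Ink4 pair went the opposite way. Cdkn2c, which encodes p18, measured 603, 497 and 675 in DKK1-treated and 600.4, 703 and 667 in untreated cells, against 1513, 1586 and 1924 in primary cells. It was 2.84-fold lower in DKK1-treated cells (log2 difference -1.50 ± 0.14, adjusted p = 9.38e-06 by limma) and 2.54-fold lower in untreated cells (-1.34 ± 0.14, adjusted p = 2.07e-05) than in primary cells. Cdkn2d, which encodes p19Ink4d, measured 1432, 1400.3 and 1467 in DKK1-treated and 1328, 1375 and 1433 in untreated cells, against 2341, 2541 and 2158 in primary cells. Its fall was 1.63-fold in DKK1-treated and 1.70-fold in untreated cells (log2 differences -0.71 ± 0.09 and -0.77 ± 0.09), with narrow spread in both ESC-RPC groups.

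Among the Cip/Kip inhibitors, Cdkn1a and Cdkn1b were lower in ESC-RPCs. Cdkn1a, which encodes p21 and is a transcriptional target of p53, measured 706, 842 and 960.0 in DKK1-treated and 1029, 925 and 1135 in untreated cells, against 2731, 3203 and 2615 in primary cells. It was 3.42-fold lower in DKK1-treated cells (log2 difference -1.77 ± 0.13, adjusted p = 2.08e-06 by limma) and 2.77-fold lower in untreated cells (-1.47 ± 0.13, adjusted p = 8.41e-06) than in primary cells. A second Cdkn1a probe set had log2 differences of -2.36 ± 0.16 in DKK1-treated and -1.96 ± 0.16 in untreated cells, so both probe sets placed the gene lower.

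Cdkn1b, which encodes p27, measured 3191, 2904 and 3438 in DKK1-treated and 2717, 2537 and 3226 in untreated cells, against 4814, 4049 and 6105 in primary cells. It was 1.55-fold lower in DKK1-treated cells (log2 difference -0.63 ± 0.14, adjusted p = 0.00385 by limma) and 1.75-fold lower in untreated cells (-0.81 ± 0.14, adjusted p = 0.00089) than in primary cells. Its second, dimmer probe set gave -0.55 ± 0.18 for DKK1-treated cells (adjusted p = 0.024 over the 29052 kept probe sets) and -0.42 ± 0.18 for untreated cells (adjusted p = 0.0694), so the second of these did not pass. Of the kept probe sets, 47.6% were called for DKK1-treated and 47.5% for untreated cells against primary cells.

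Cdkn1c, an imprinted gene whose product p57 restrains the cycle in differentiating cells, was not called. It measured 1986, 2024 and 2101 in DKK1-treated and 2395, 2369 and 2205 in untreated cells, against 2478, 1230.2 and 1516 in primary cells. Primary replicate 1 lay above all 6 ESC-RPC arrays and the other primary arrays lay below all of them. The difference from primary cells was 0.29 ± 0.20 in DKK1-treated cells (adjusted p = 0.244 by limma; interval -0.15 to 0.73) and 0.48 ± 0.20 in untreated cells (adjusted p = 0.0647; interval 0.04 to 0.92). Without primary replicate 1 the differences were 0.58 (adjusted p = 0.00157) and 0.77 (adjusted p = 0.000303), so that array decided the call.

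In the retinoblastoma family, Rb1 and Rbl1 were called in opposite directions. Rb1 measured 2372, 2308 and 2392 in DKK1-treated and 2373, 2379 and 2367 in untreated cells, against 1938, 1774 and 2199 in primary cells. Neither ESC-RPC group overlapped primary cells, while the ESC-RPC groups overlapped each other. The difference from primary cells was small, 1.20-fold higher in DKK1-treated (log2 0.26 ± 0.09, adjusted p = 0.0256 by limma) and 1.21-fold higher in untreated cells (0.27 ± 0.09, adjusted p = 0.0219). The call in untreated cells was lost without any 1 of the 3 untreated arrays (adjusted p = 0.0552 to 0.0627), and in DKK1-treated cells without any 1 of the 3 treated arrays (0.0504 to 0.0753) or without primary replicate 1 (0.0534). The second Rb1 probe set lay above background on 1 of 9 arrays and was not tested.

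Rbl1, which encodes p107 and is most abundant in cycling cells, measured 1002, 799.8 and 1089.7 in DKK1-treated and 969.9, 935 and 1112 in untreated cells, against 1662, 2160 and 1246 in primary cells. The spread was widest in primary cells, where replicate 2 was highest. Rbl1 was 1.72-fold lower in DKK1-treated cells (log2 -0.79 ± 0.19, adjusted p = 0.00504 by limma) and 1.64-fold lower in untreated cells (-0.72 ± 0.19, adjusted p = 0.00827). Its other kept probe sets did not follow: one read 0.03 ± 0.23 in DKK1-treated and -0.29 ± 0.23 in untreated cells, and a dim one 0.42 ± 0.41 and 0.32 ± 0.41. With all kept probe sets averaged, the Rbl1 difference was -0.11 in DKK1-treated cells (adjusted p = 0.68) and -0.23 in untreated cells (adjusted p = 0.374), so the call rests on the brightest probe set. The remaining Rbl1 probe set lay above background on 0 of 9 arrays.

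Rbl2, whose product p130 is the family member best known from resting cells, was not called. It measured 545, 469.7 and 437 in DKK1-treated and 498, 468 and 448 in untreated cells, against 450.3, 324 and 464 in primary cells, and the 3 groups overlapped. The difference from primary cells was 0.24 ± 0.15 in DKK1-treated (interval -0.10 to 0.58) and 0.21 ± 0.15 in untreated cells (interval -0.13 to 0.55). Its second, dimmer probe set gave -0.05 ± 0.17 in DKK1-treated and 0.30 ± 0.17 in untreated cells and was not called in either.

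**Figure D3:**
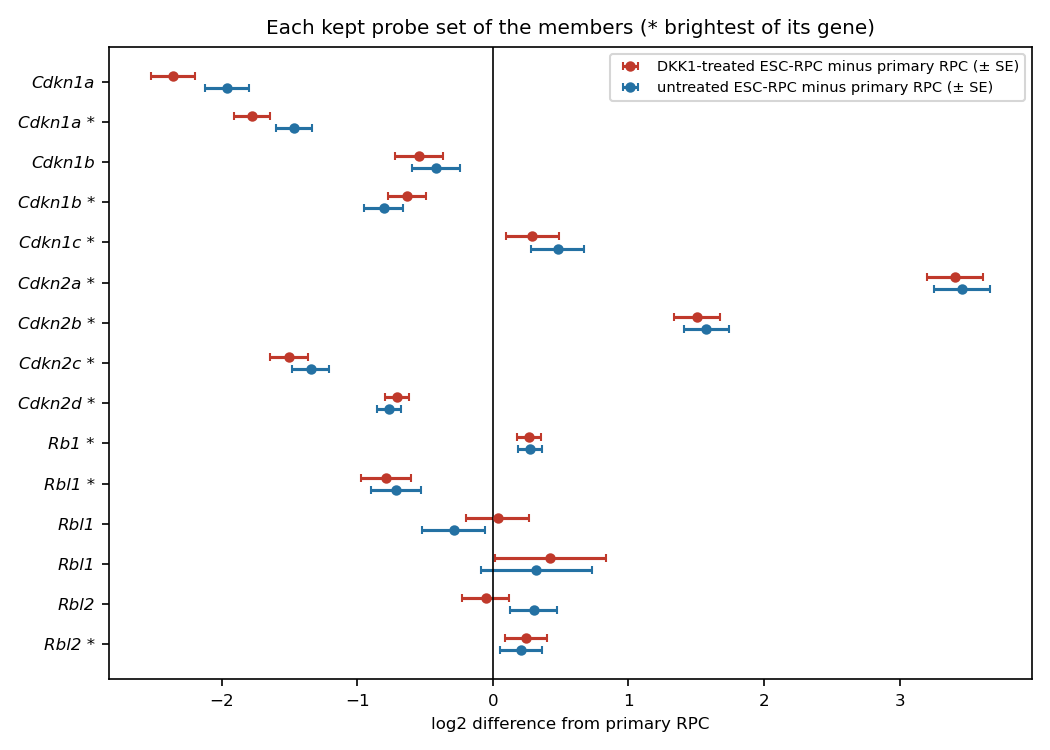
Log2 difference from primary RPCs (x axis, ± SE) of each of the 15 kept probe sets of the members (y axis, a star marks the brightest of its gene) in DKK1-treated and untreated ESC-RPCs. The pair of Cdkn1a probe sets and the pair of Cdkn1b probe sets lie on the same side of 0, whereas the 3 of Rbl1 do not.

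The comparison of DKK1-treated with untreated ESC-RPCs asked what 1 day of the Wnt antagonist changed. None of the 10 members was called by limma (all adjusted p = 0.9997), as was the case for all 13320 genes (0% called). At an unadjusted p under 0.05 there was 1 member, Cdkn1a, where 2.31% of all genes reached that level. The mean was higher after DKK1 for 3 members and lower for 7, with a median log2 difference of -0.06, against -0.00183 over all genes. The 95% intervals of the differences ran from -0.63 at the lowest, for Cdkn1c, to 0.49 at the highest, for Cdkn1b. These intervals rest on a spread pooled over all groups, the primary arrays included. For Cdkn1c the SE was 0.20 in this fit and 0.06 with only the ESC-RPC groups compared. For Cdkn1b it was 0.14 and 0.10. The intervals do not show that the groups were alike.

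Cdkn1a averaged 836 ± 127 in DKK1-treated and 1030 ± 105 in untreated cells, with overlapping arrays and a log2 difference of -0.31 ± 0.13. Its second probe set read 510.0, 388 and 493 in treated and 541, 534 and 771 in untreated cells, which did not overlap. Cdkn1c averaged 2037 ± 58.6 in treated and 2323 ± 103 in untreated cells and was the 1 member whose brightest probe set did not overlap between these groups, where 12% of all genes did not overlap and 6.73% did so with the treated group lower. Cdkn1b averaged 3178 ± 267 in treated and 2827 ± 357 in untreated cells, a log2 difference of 0.17 ± 0.14, but its second probe set had the other sign (-0.13 ± 0.18). For Rb1 the difference was -0.01 ± 0.09, with means of 2357 ± 43.7 in treated and 2373 ± 5.99 in untreated cells. The Ink4 genes differed by -0.05 ± 0.21 for Cdkn2a, -0.07 ± 0.17 for Cdkn2b, -0.16 ± 0.14 for Cdkn2c and 0.06 ± 0.09 for Cdkn2d, each with overlapping arrays. Rbl1 differed by -0.07 ± 0.19 and Rbl2 by 0.03 ± 0.15. The second Rbl2 probe set read 160, 173 and 121 in treated and 188, 202 and 183 in untreated cells, which did not overlap, whereas its brightest probe set did.

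Arrays of the ESC-RPC groups that share a replicate number deviated together and were taken as pairs, which the labels do not state. The pairing was chosen from the same values that the paired fit then tested. By replicate number, Cdkn1a was lower in the treated array of all 3 pairs (log2 -0.54, -0.14 and -0.24), Cdkn1c was lower in all 3 (-0.27, -0.23 and -0.07), and Cdkn1b (0.23, 0.19 and 0.09) and Cdkn2d (0.11, 0.03 and 0.03) were higher in all 3. Of all genes, 37.4% had the same sign in the 3 pairs. With the replicate number as a block on the 6 ESC-RPC arrays, limma called 65 of all genes (0.488%) and 0 members. The smallest adjusted p-values among the members in that paired fit were 0.107 for Cdkn1b, 0.115 for Cdkn1a and 0.121 for Cdkn1c. These 3 were at unadjusted p-values of 0.00234, 0.00309 and 0.00372, where 15% of all genes were under 0.05.

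**Figure D4:**
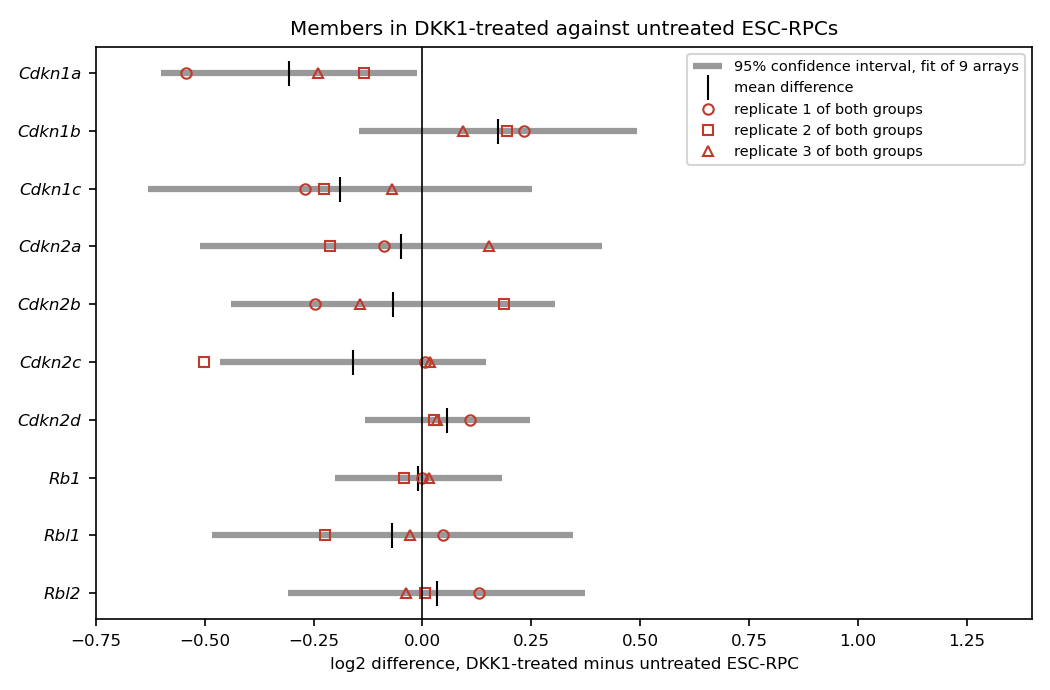
Log2 difference of DKK1-treated minus untreated ESC-RPCs (x axis) for each member (y axis): the mean with its 95% confidence interval from the fit of 9 arrays, and the difference within each replicate number (open symbols). Cdkn1a and Cdkn1c lie below 0 and Cdkn1b and Cdkn2d above 0 in all 3 pairs, where 37.4% of all genes had the same sign. In the fit of 9 arrays, whose spread includes the primary arrays, the Cdkn1a interval alone leaves out 0. With the replicate number as a block on the ESC-RPC arrays alone, the intervals of Cdkn1a, Cdkn1b and Cdkn1c all left out 0. They ran from -0.48 to -0.13, from 0.08 to 0.27 and from -0.30 to -0.08, and no member was called. Of all genes, 15% had an unadjusted limma p under 0.05 in that fit. The second Cdkn1b probe set, not shown, had the other sign in the fit of 9 arrays (-0.13 ± 0.18).

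Of 9 kinases, cyclins and a phosphatase of G1, on which these inhibitors bear, 4 were called higher and 2 lower in DKK1-treated cells, and 5 higher and 2 lower in untreated cells, than in primary cells. For this and the following lists the calls stand beside 52.8% (DKK1-treated) and 53% (untreated) of all genes called, about evenly higher and lower, so nothing is read from the number of calls in a list or from their split. Ccnd2, a D-type cyclin, measured 11274 ± 1128 in untreated cells against 605 ± 192 in primary cells (log2 4.27 ± 0.20), while Ccnd1, the main D-type cyclin of retinal progenitors, measured 3980 ± 555 against 12525 ± 2968 (-1.64 ± 0.17). Ccne1, a cyclin that activates Cdk2, and Cdc25a, a phosphatase that does so too, were higher in untreated cells by 0.84 ± 0.17 and 0.65 ± 0.13 (limma adjusted p = 0.00211 and 0.00167). Between DKK1-treated and untreated cells 0 of the 9 were called, and 0 were under an unadjusted p of 0.05.

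Of the 10 E2F and DP factors, the transcription factors that the retinoblastoma proteins bind, 3 were called higher and 5 lower in DKK1-treated cells, and 3 higher and 4 lower in untreated cells, than in primary cells. E2f1, an activating E2F, measured 342 ± 9.07 in DKK1-treated and 464 ± 94.3 in untreated cells, against 933 ± 188 in primary cells, and E2f2, also an activator, measured 163 ± 9.72 in DKK1-treated and 224 ± 15 in untreated cells, against 507 ± 223. E2f5, a mainly repressive E2F that binds p130, was higher in untreated cells by 0.62 ± 0.12 and Tfdp1, the common dimer partner, by 0.68 ± 0.13 (limma adjusted p = 0.00124 and 0.00151). E2f3, also grouped with the activators, was called higher in untreated than in primary cells (0.83 ± 0.21). The repressive E2f7 and E2f8 were called lower (-1.12 ± 0.29 and -0.88 ± 0.20). Activating and repressive E2Fs thus each had calls in both directions. Between the ESC-RPC groups E2f1 had an unadjusted p of 0.0385 and E2f2 of 0.0967, and 0 of the 10 were called. The MuvB core binds Rbl1 or Rbl2 in the repressive complex of resting cells, of which B-Myb (Mybl2) is not a part. Of the 6 genes of the MuvB core and B-Myb, 1 was called higher (Mybl2, 1.03 ± 0.24) and 1 lower (Lin9, -0.53 ± 0.15) in untreated cells than in primary cells.

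**Figure D5:**
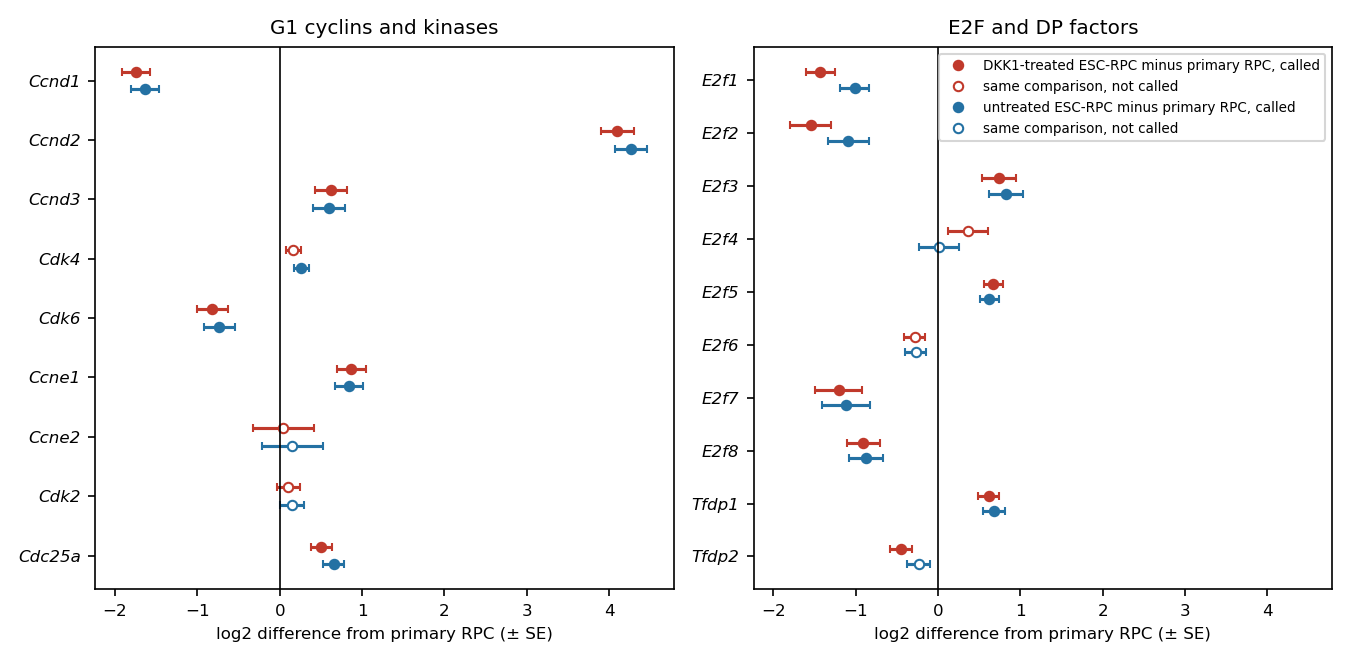
Log2 difference from primary RPCs (x axis, ± SE) of 9 cyclins, kinases and the phosphatase Cdc25a of G1 (left) and of 10 E2F and DP factors (right) in DKK1-treated and untreated ESC-RPCs; filled points were called. Ccnd2 lies at 4.10 and 4.27 and Ccnd1 at -1.74 and -1.64, on either side of 0.

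Genes listed as acting on the members, or as belonging to the p53 circuit of Cdkn1a, had calls in both directions, as did all genes (26.1% higher and 26.9% lower in untreated cells). Of 8 Polycomb and Id genes known to repress the locus of Cdkn2a and Cdkn2b, 4 were called higher and 3 lower in untreated cells than in primary cells. Bmi1, a Polycomb subunit whose loss raises Cdkn2a in mice, measured 2157 ± 11.5 in untreated against 3717 ± 123 in primary cells (log2 -0.78 ± 0.07, limma adjusted p = 7.38e-06). Cbx7, another subunit of that complex, went the other way at 502 ± 18.2 against 170.2 ± 57.7 (1.62 ± 0.22). Of 9 measured genes of the p53 circuit, 3 were called higher (Ccng1, Chek1 and Chek2) and 3 lower (Mdm2, Atm and Atr) in untreated cells. Ccng1, a p53 target, measured 10946 ± 836 in untreated against 4957 ± 970 in primary cells, the opposite direction to Cdkn1a. Mdm2, also a p53 target, measured 1094 ± 34.3 against 1340 ± 78.1, the same direction as Cdkn1a. That list holds p53 targets as well as regulators, and Trp53 itself had no probe set of its own. Of 6 genes listed for the turnover of p27, 2 were called higher (Skp1 and Cks1b) and 1 lower (Cops5). Fbxo5, also on that list, is not a component of the ubiquitin ligase of p27. In none of these 3 lists was a gene called between DKK1-treated and untreated cells, or under an unadjusted p of 0.05.

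Markers of cycling cells did not move one way against primary cells. Of 9 measured S phase and mitosis markers, 2 were called higher and 4 lower in DKK1-treated, and 3 higher and 4 lower in untreated cells, than in primary cells. Mki67, Ccna2, Cdk1 and Aurkb were the ones called lower in untreated cells, and Bub1, Mcm5 and Pcna the ones called higher. Ccna2, the S phase cyclin, measured 3046 ± 111 in untreated against 5852 ± 168 in primary cells, and Bub1, a mitotic checkpoint kinase, 2535 ± 196 against 1511 ± 291. The summed intensity of these markers was 39381 to 46845 in DKK1-treated, 45659 to 48857 in untreated and 43890 to 50182 in primary cells, so the groups overlapped. Between the ESC-RPC groups, all 9 had lower means after DKK1 (median log2 difference -0.11), and all 6 pluripotency markers had higher ones (median 0.23), with 0 called in either list. The median over all genes was -0.00183. Genes of a list can vary together across arrays, so these counts by sign are not independent and nothing is read from them. Zfp42, Dppa4 and Tdgf1 did not overlap between the ESC-RPC groups, which was noted after their values were seen. Of all genes, 12% did not overlap between these groups in either direction. Genes of other lists did not overlap either, among them E2f1, E2f2 and Pcna (lower after DKK1) and Cbx7 (higher).

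Markers of other cell types differed between ESC-RPCs and primary cells. Of 8 measured markers of postmitotic retinal neurons, 7 were called lower in either ESC-RPC group, with a sum of 8528 to 11411 in DKK1-treated and 8612 to 10424 in untreated cells against 21686 to 28871 in primary cells over the 9 that have a probe set. Crx and Sag, which mark photoreceptors, lay at or under the background level on all 6 ESC-RPC arrays. Stmn2, the neuron marker not called, made up most of the ESC-RPC sum. It measured 7339 ± 1212 in DKK1-treated, 7085 ± 863 in untreated and 6773 ± 250 in primary cells. All 6 pluripotency markers were called higher, with sums of 19804 to 21077 in DKK1-treated and 17091 to 20613 in untreated cells against 197 to 275 in primary cells, and 5 of 6 mesenchyme markers were called higher, with sums of 18263 to 21168 in DKK1-treated and 18012 to 21779 in untreated cells against 2320 to 2577 in primary cells. Acta2, the mesenchyme marker not called, made up most of the primary sum. It measured 2181 ± 382 in DKK1-treated, 2061 ± 143 in untreated and 2135 ± 186 in primary cells. Of 4 measured microglia markers, 3 were called lower, and the sums over the 6 with a probe set were 87.9 to 146 in DKK1-treated and 92.8 to 126 in untreated cells against 756 to 1375 in primary cells. Crx, Nrl, Sag, C1qa, C1qb and Ctss passed the filter only through the primary arrays. Nanog, Zfp42, Dppa4, Tdgf1 and Lum passed it only through the ESC-RPC arrays. The filter thus favoured a call for these genes, and nothing is read from the counts of calls in these lists. The part of these other cell types in the values of the members was not tested.

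The genes whose log2 values ran most like those of a member were read for the 3 members with the largest difference between untreated and primary cells. Over the 9 arrays, Cdkn2a correlated best with Frzb (r = 0.999), Nxpe4 (0.999) and Bcar3 (0.998), Cdkn2b with Sh3pxd2a (0.993), Nkx6-1 (0.992) and Cmtm3 (0.989), and Cdkn1a with Nin (0.994), Cep76 (0.993) and Cav2 (0.993). These points share the step between ESC-RPC and primary arrays. Frzb, a secreted Wnt antagonist, measured 489.5 ± 98.0 in DKK1-treated and 521 ± 36.1 in untreated cells, against 38.8 ± 9.44 in primary cells. Cav2, a caveolin, measured 42.3 ± 8.77 in DKK1-treated and 67.7 ± 2.14 in untreated cells, against 593 ± 215 in primary cells.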

How the data were processed

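The authors deposited 1 MAS5 intensity, on a linear scale, for each probe set on each array, per the submitters' processing notes, which give no version or settings. Genome build and annotation are not given in the sources used here. In each column the mean after trimming 2% at either end was 500 and the lowest value was 1. The 64 control probe sets were set aside, and 932 probe sets with several genes and 9160 with none were not used for genes. Log2 was taken with no further normalisation. The filter asked for a value over the 40th percentile of the same array on 3 or more of the 9 arrays (29052 kept, 24773 with 1 gene), and the brightest kept probe set by mean log2 stood for each of 13320 genes. Of the 17 member probe sets, 15 were kept.

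One mean per group was fitted with limma 3.58.1 in R 4.3.3 with an intensity trend. The fit was tested on simulated data. Precision is limited by the number of arrays; the median SE of a log2 difference was 0.15. Deviations from the group means correlated at 0.123, 0.195 and 0.318 for treated and untreated arrays of the same number and at -0.234 to 0.0681 for different numbers. All 3 being over 0.1, the number was used as a pairing of the ESC-RPC arrays, which the labels do not state. Deviations cancel within a group, so positive values for equal numbers push those for different numbers down. The contrast between them is therefore not independent evidence of pairing.

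The members, the gene lists and the alternatives were chosen with earlier results of these data known. All members were named. For each other list up to 4 called genes with the smallest adjusted p against primary cells, and up to 2 with the smallest unadjusted p between the ESC-RPC groups, could be named. Genes named with values or calls outside this rule were chosen after their values were seen. They were Rax, Sfrp2, Fgf15, E2f3, E2f7, E2f8, Mdm2, Chek1, Zfp42, Mcm5, Pcna, Aurkb, Nrl, Stmn2 and Acta2. Some listed genes had no probe set of their own and were not analysed here.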

Additional observations from a re-analysis of the deposited data

How the results depend on the processing

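The alternatives were quantile normalisation, arrays set to one median, no filter, a filter on all 9 arrays, log2(value + 32), the average over the probe sets of a gene, every kept probe set on its own, no intensity trend, only the 2 groups compared, a replicate block, and each array left out. Between DKK1-treated and untreated cells 0 members were called under each of them, the replicate block on all 9 arrays and on the 6 ESC-RPC arrays included, while all genes called numbered 65 with the block on 6 arrays and 1 without the intensity trend. Against primary cells, 7 or 8 of 10 members were called under the alternatives that keep all arrays, and 7 to 9 (untreated) or 7 to 8 (DKK1-treated) with 1 array left out; no called member changed sign. The members whose calls changed were Rb1, Rbl1 and Cdkn1c. The Rb1 call was also lost with only the 2 groups compared (adjusted p = 0.0678 for DKK1-treated and 0.0564 for untreated cells) and, for DKK1-treated cells, with arrays set to one median (0.0502). Without primary replicate 2, the members called numbered 8 in both comparisons, and Rbl1 differed by -0.59 in DKK1-treated and -0.52 in untreated cells. With every kept probe set on its own, 13823 of 29052 were called between DKK1-treated and primary cells and 13798 between untreated and primary cells, against 7034 and 7060 of 13320 genes. The replicate block changed no other call of a member. The Cdkn2a level in primary cells lies near background, which limits the precision of its fold.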
